A study of Saccharomyces cerevisiae with 2 samples.

Results

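The vacuolar protein sorting genes of budding yeast, the VPS genes, were described by their histone H3 signal over coding regions and promoters. Members were the genes whose name on the array is VPS followed by digits, with the names of shared divergent promoters split into their 2 genes, and there were 41 of 5653 genes. They lie on 12 chromosomes, and 346 probes carry their names. Of the 41 members, 39 had a coding value from at least 2 probes, 37 had a promoter value and 35 had both. VPS9, VPS20, VPS28 and VPS33 had no promoter probe. VPS55 and VPS71 had 1 coding probe each, with ratios of 0.20 and -0.34, and so no coding value. The name rule leaves out pathway genes that the array lists under other names, such as SNF7, PEP8 and STP22, and these are described apart. The members were put forward as weakly and steadily expressed genes, and expression was not measured in these data.

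The study measured H3 in 1 strain, MDY510, in which H3 carries the Myc epitope tag. The cells were arrested with alpha factor, the mating pheromone that stops MATa cells in G1, and galactose was not added, so 1 group of 2 arrays, replicates 1 and 2, shares this genotype and treatment. On each 2-colour tiling array the labels give Cy5 to sonicated chromatin precipitated with an anti-Myc antibody (IP) and Cy3 to the sonicated input, whole cell extract (WCE). Nothing in the labels ties the 2 replicates to separate cultures, so p-values cover only the array-to-array spread, which may be technical. The labels also do not give which gene copies of H3 carry the tag. Without a dye swap, dye and IP cannot be told apart.

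The VPS genes were found through mutants that secrete vacuolar hydrolases instead of delivering them. Their products carry proteins from the Golgi through endosomes to the vacuole, the yeast counterpart of the lysosome: ESCRT complexes sort ubiquitinated membrane proteins into endosomal vesicles, retromer returns sorting receptors to the Golgi, CORVET and HOPS tether endosomes and vacuoles for fusion, GARP tethers vesicles at the Golgi, and the kinase Vps34 makes the phosphoinositide that recruits many of these proteins. A few genes of the family encode chromatin proteins. Yeast genes are compact, and promoters of active genes commonly hold a nucleosome-depleted region beside nucleosome-covered coding sequence.

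Each value is the log2 ratio of Cy5 over Cy3, centred on the median of the array, so 0 is the median probe. Errors are the SD over 2 arrays (n = 2). Higher means a larger ratio than the median probe and lower a smaller one, whatever the brightness of the spot. A call is an adjusted p under 0.05 in limma with Benjamini-Hochberg adjustment over all genes. Mitochondrial DNA, which carries no histones, went against the channel labels. The median log2 ratio of its 230 probes lay 4.84 ± 0.10 above that of nuclear probes, a ratio 28.7-fold higher. Every direction below is therefore that of the ratio as labelled, and each sign would turn if the channels were exchanged. The members differed little between arrays, with a median SD of 0.02 for coding values, at most 0.07, and 0.03 for promoters. Probes within 1 member varied more, with a median SD of 0.24 over coding probes. The test uses only the small spread between arrays, so values close to 0 pass it. That spread was pooled over genes: the standard error was 0.021 for every member's coding value and 0.032 for every member's promoter. A member's own SD thus played almost no part, and its coding or promoter p-value restates the size of its value. One alternative, normexp background correction of the raw signals, alone or with loess normalization, ended every call of a member. It removed a median of 28306 to 35959 from signals with a median of 34358 to 36696, whereas the scanner's local background had medians of at most 87.5. Subtracting that local background from the raw signals, an alternative added after the data were seen, kept 127 of 129 member values in direction and call. The processed signals behind the reported values already had local background subtracted. This alternative was therefore close to them by construction, and here and below it is no independent check.

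Over coding regions, most VPS genes had a ratio of Cy5, labelled IP, over Cy3 below that of the median probe. Of 39 members, 26 were lower, 7 were higher and 6 did not pass the test, 66.7% and 17.9% of members, against 49.1% lower and 34.9% higher among all 4996 genes tested. The members' median was -0.11, with -0.12 in replicate 1 and -0.10 in replicate 2, and that of all genes was -0.04. Values ran from -0.72 for VPS28 to 0.26 for VPS60. Probe by probe, 148 of the members' 264 coding probes were lower and 53 higher, 56.1% and 20.1%, against 45.4% and 30.7% of 29599 coding probes of all genes. Among all genes ranked by coding value, 9 members were in the lowest 10% and 0 in the highest 10%. The adjusted p-values of the 33 members called in limma ran from 6.63e-226 for VPS28 to 0.0468 for VPS9, whose value was only -0.04. The count depended on the centring and the summary: centred on the mode of nuclear probes, 3 members were higher and 18 lower, and with the median of a gene's probes 11 were higher and 21 lower. With normexp limma called 0 of 39 members, and 0 higher and 6 lower were at an unadjusted p under 0.05. With loess added, it again called 0, and 1 higher and 5 lower were at an unadjusted p under 0.05.

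**Figure D1:**
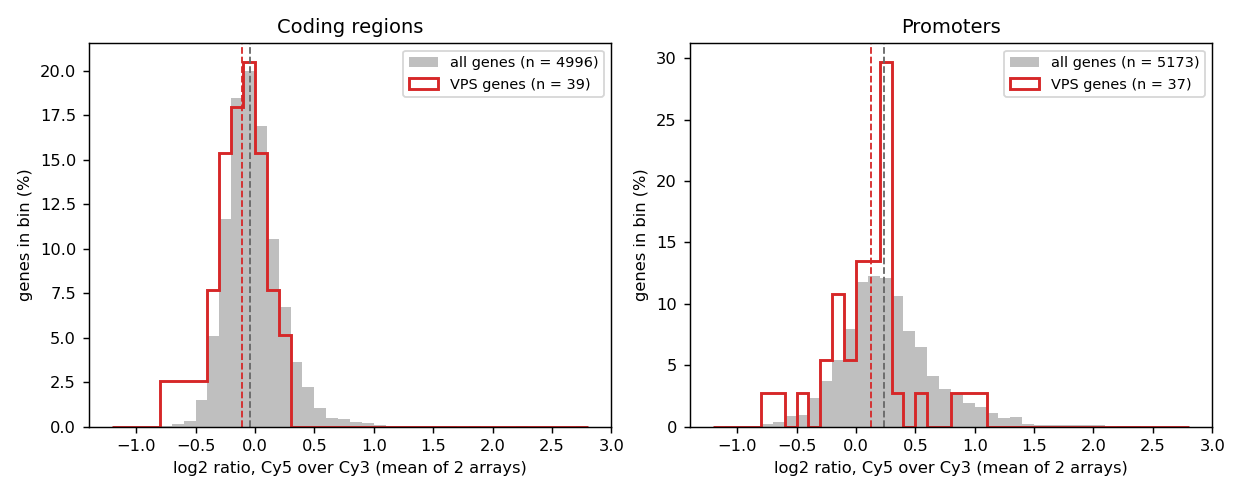
Distribution of the log2 ratio of Cy5 (labelled IP) over Cy3 (labelled WCE), mean of 2 arrays, for coding regions (left, 39 VPS genes in red outline and 4996 genes in grey) and promoters (right, 37 and 5173), as the percentage of genes per bin, with dashed lines at the medians. The VPS coding median of -0.11 lies left of that of all genes at -0.04, and no VPS coding region exceeds 0.26.

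The VPS genes of the phosphatidylinositol 3-kinase complexes had the lowest median of the role groups over coding regions, -0.42. Of these 4 genes 4 were lower, where 49.1% of all genes were. ATG14, a subunit that the name rule leaves out, had a coding value of 0.03. VPS38, a subunit of the endosomal Vps34 complex, gave -0.68 in replicate 1 and -0.65 in replicate 2 (mean -0.67 ± 0.02, 1.59-fold below the median probe) and ranked 2 from the lowest of 4996 genes. VPS30, the Beclin-type subunit shared by both Vps34 complexes and also needed for autophagy, gave -0.57 and -0.52 (-0.54 ± 0.03, rank 14). VPS15, the protein kinase-like regulator, had -0.30 ± 0.01 over 15 probes, and VPS34, the lipid kinase itself, -0.18 ± 0.04 over 10 probes. The arrays thus gave the same order of the 4 genes. The low values of VPS38 and VPS30 ran along the gene: 5 of 5 and 6 of 6 coding probes were lower. The 5 VPS38 probes, at chr12:846132-847295 in the array's coordinates, read -0.16, -1.13, -0.44, -0.67 and -0.94 from the 5′ end. In VPS34, by contrast, single probes ran from -0.80 to 0.33. VPS38 overlaps DCR2 in the R64 gene table. The promoter of VPS30, shared with MEI5, was lower at -0.30 ± 0.02. The other 3 were higher, up to 0.12 ± 0.03 at VPS38, where 70.8% of all promoters were higher. The promoter exceeded the coding region in 4 of 4 genes, as it did in 71.9% of all genes.

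The ESCRT genes, which bend endosomal membrane into inward vesicles, covered the whole range of the family. Of 8 coding regions 4 were lower, 3 were higher and VPS4, the AAA ATPase that takes ESCRT-III apart, did not pass at -0.02 ± 0.003. Among all genes 49.1% were lower and 34.9% higher. VPS28, an ESCRT-I subunit, gave -0.77 in replicate 1 and -0.67 in replicate 2 (-0.72 ± 0.07, 1.65-fold below the median probe). This was the lowest coding value of all 4996 genes. It rests on 2 probes at chr16:428084-428469, which read -0.74 and -0.70. Processed signals at the first were 470 in Cy5 and 811 in Cy3 on replicate 1, and 359 and 576 on replicate 2. In contrast, the downstream probe at chr16:428642-428701 read 0.57 and 0.82 on the 2 arrays (mean 0.70 ± 0.18). This single probe was dimmer, with 316 in Cy5 and 209 in Cy3 on replicate 1, and 262 and 149 on replicate 2. With normexp the VPS28 coding value was 0.09, with the sign turned and an adjusted p of 0.737 in limma, and with local background subtracted it was -0.70. VPS24, an ESCRT-III subunit, was also lower, with -0.33 and -0.30 (-0.31 ± 0.02, 2 probes).

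The 2 highest coding values of the whole family, VPS60 and VPS20, were also those of ESCRT genes. VPS60, an ESCRT-III-associated protein, gave 0.27 and 0.25 on the 2 arrays (0.26 ± 0.01, 1.20-fold above the median probe), and its 2 probes read 0.16 and 0.36. The probe at 0.16 was saturated, and without saturated probes VPS60 had no coding value. VPS20, an ESCRT-III subunit, gave 0.20 and 0.25 (0.23 ± 0.04), with probes at 0.19 and 0.26. VPS25, an ESCRT-II subunit, gave 0.10 and 0.14 (0.12 ± 0.03), below VPS21 and VPS53 of other groups. Each of these has only 2 or 3 coding probes, as VPS28 and VPS24 do, so both ends of the group rest on few probes. With normexp, VPS60 was -0.07 and VPS20 -0.02, signs turned, and neither was called in limma.

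VPS36, the ESCRT-II subunit that binds phosphoinositides and ubiquitin, changed sign between probes along its length. Its 7 coding probes ran from 0.48 at the first through 0.16 and 0.16 to -0.47, -0.92, 0.08 and -0.47. The mean was -0.14 ± 0.003 and was called lower, whereas the median of the probes was 0.08 and was called higher (limma adjusted p 0.00386), so no direction can be given for its coding region. The promoter it shares with YLR415C gave 1.04 in both replicates (1.04 ± 0.0009, 2.05-fold above the median probe) and was the highest of the family. The 2 promoter probes, at chr12:954675-954734 and chr12:954889-954948, read 1.16 and 0.91, and the first coding probe at 0.48 continued the descent. The other ESCRT promoters ran from -0.13 ± 0.001 at VPS24 upward. With VPS36, 4 of 6 were higher and 2 lower, beside 70.8% and 16.3% of all promoters.

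Among genes of the HOPS and CORVET tethers and of fusion, 6 of 8 coding regions were lower, where 49.1% of all genes were, and 1, VPS21, was higher, while VPS33, the Sec1/Munc18 protein of both tethers, did not pass at 0.02 ± 0.003. VPS16, a core subunit of both tethers, gave -0.33 and -0.30 (-0.32 ± 0.02), and 6 of its 7 probes were lower. VPS21, a Rab5-type GTPase of endosome fusion, gave 0.13 and 0.19 (0.16 ± 0.04), from 1 probe at -0.03 and 1 at 0.35. Of 6 promoters 5 were higher, where 70.8% of all promoters were, and VPS8, a CORVET subunit, did not pass at 0.01 ± 0.003. The VPS21 promoter gave 0.53 and 0.65 (0.59 ± 0.09), that of VPS41, a HOPS subunit, 0.37 and 0.41 (0.39 ± 0.03, shared with YDR079C-A), and that of VPS45, a Sec1/Munc18 protein of the Golgi and endosome, 0.25 and 0.35 (0.30 ± 0.07). In 6 of 6 genes the promoter exceeded the coding region, as it did in 71.9% of all genes.

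Of the 4 retromer genes, 3 were lower over coding regions and 0 higher, beside 49.1% and 34.9% of all genes. Coding values were -0.27 ± 0.02 for VPS17 and -0.07 ± 0.03 for VPS5, the sorting nexins, -0.13 ± 0.01 for VPS35, the cargo-binding subunit, and 0.02 ± 0.02 for VPS29, which did not pass. Promoters were higher in 3 of the 4 genes, up to 0.25 ± 0.08 at VPS29, where 70.8% of all promoters were higher. Among these 3, that of VPS35 rests on 2 saturated probes, at 0.06 and 0.27, and had no value without them. The gene without a higher promoter was VPS5, whose 2 probes labelled as a promoter shared with VAM10 gave -0.21 and -0.19 (-0.20 ± 0.02). VAM10 overlaps VPS5 in the R64 table, so no stretch between the 2 genes is left for a shared promoter. These probes cannot be assigned to 1 of the genes, and their value cannot be read as that of a promoter.

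The 4 GARP genes, whose products form a single tether at the Golgi, split evenly. Over coding regions 2 were higher and 2 lower, beside 34.9% and 49.1% of all genes. VPS53 was higher over its coding region (0.13 and 0.15, mean 0.14 ± 0.01), as was VPS51 (0.06 ± 0.01), whereas VPS52 was lower (-0.31 and -0.30, mean -0.31 ± 0.01), as was VPS54 (-0.10 ± 0.02). Promoters followed the same split with a wider range, where 70.8% of all promoters were higher and 16.3% lower. That of VPS53 gave 0.93 and 1.01 (0.97 ± 0.05, 1.96-fold above the median probe) from 5 probes, which read 0.22, 1.72, 1.42, 0.72 and 0.76 from the farthest to the nearest. That of VPS54 gave -0.65 and -0.62 (-0.63 ± 0.02), and that of VPS52 -0.51 and -0.44 (-0.47 ± 0.05), each from 1 probe. VPS51 shares its promoter with IRS4, at 0.22 ± 0.004. The subunits of 1 complex therefore spanned most of the family's promoter range.

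Among the genes of dynamin, lipid transfer and other membrane proteins, 3 of 4 coding regions were lower, where 49.1% of all genes were. VPS68 was higher (0.08 and 0.09, mean 0.09 ± 0.0005). VPS13, the lipid transfer protein of membrane contacts and the longest member, was lowest with -0.20 ± 0.01 over 34 probes, of which 21 were lower and 1 higher. VPS55, a late endosomal membrane protein, had the lowest promoter of the family: -0.81 and -0.76 (-0.78 ± 0.03, 1.72-fold below the median probe), which ranked 9 from the lowest of 5173 promoters. It rests on 1 probe, at chr10:519096-519155, and with normexp it was 0.23, with the sign turned (limma adjusted p 0.478), while with local background subtracted it was -0.76. The promoter of VPS68, whose product partners Vps55, was also lower at -0.11 ± 0.0003, and the highest of this group was that of VPS74, a Golgi protein that retains glycosyltransferases, at 0.20 ± 0.002 (shared with FRQ1). The promoter of VPS1, the dynamin-like GTPase, shared with PAP1, did not pass at 0.01 ± 0.08. Without saturated probes it was -0.21 and lower.

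The chromatin genes of the family act on histones rather than on vesicles. VPS75, a chaperone of H3-H4 that binds Rtt109, was lower over its coding region at -0.14 ± 0.01, and VPS72, the SWR1 subunit that binds the H2A variant Htz1, did not pass at -0.01 ± 0.02. VPS75 overlaps CWC25 in the R64 table. The promoter of VPS71, another SWR1 subunit, had a mean of 0.88 ± 0.17, 1.85-fold above the median probe, with the widest gap between arrays of any member promoter. The gap came from the farthest of its 3 probes, at 0.88 and 1.59, whereas the others read 0.82 and 0.59. That probe was dim, with processed signals of 45 in Cy5 and 24 in Cy3 on replicate 1 and 52 and 17 on replicate 2, against 833 to 1751 at the other 2. The median of the 3 probes was 0.82 and was higher too. The VPS72 promoter was lower at -0.10 ± 0.004, and that of VPS75 higher at 0.26 ± 0.02.

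Of the remaining members, VPS73 had the lowest coding value, with -0.44 in both replicates (-0.44 ± 0.0007, rank 51 from the lowest). Its 5 probes read 0.04, -0.90, -0.27, -1.02 and -0.05 from the 5′ end, and 3 of them were lower. The promoter it shares with RPL28, a ribosomal protein gene, did not pass at 0.02 ± 0.04, and its 4 probes ran from 0.65 at the RPL28 end to -0.44 at the VPS73 end. VPS70 and VPS64 were also lower over coding regions. VPS62, at 0.02 ± 0.02, and VPS66, which the R64 table calls LOA1, did not pass.

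**Figure D2:**
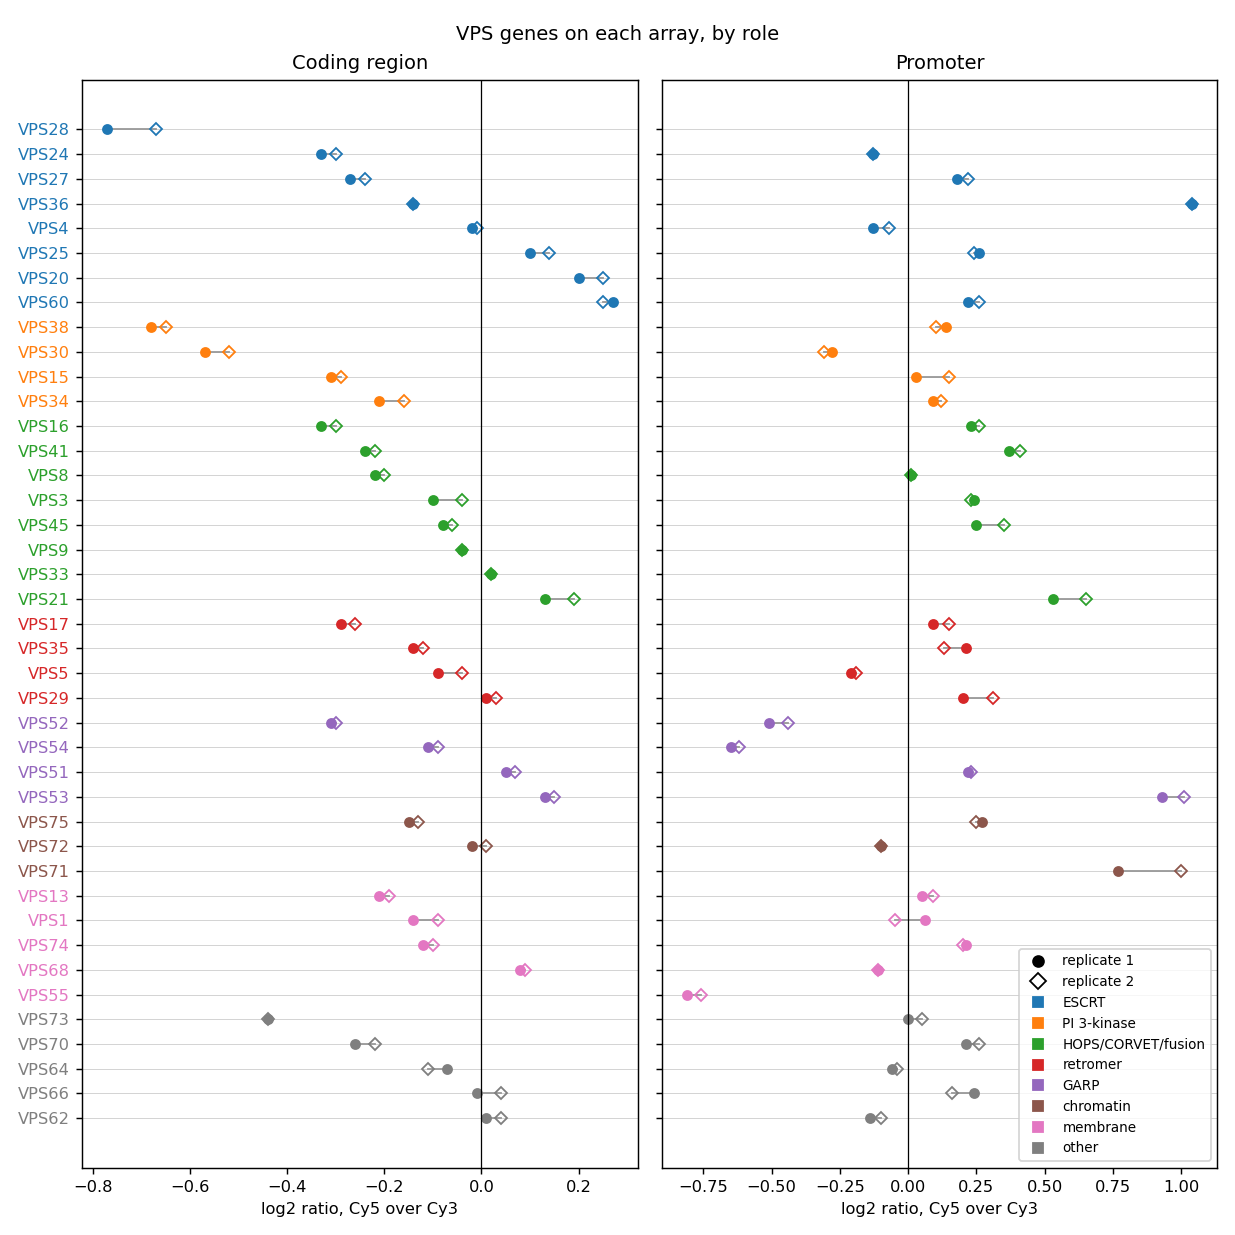
Log2 ratio of Cy5 over Cy3 of each VPS gene on each array (filled circle, replicate 1; open diamond, replicate 2) for coding regions (left) and promoters (right), coloured by role and ordered by coding value within each role ("membrane" is dynamin, lipid transfer and other membrane proteins). The arrays lie close together for nearly all members, the 4 PI 3-kinase genes all lie below 0 on the left, and the GARP promoters run from -0.63 to 0.97 on the right.

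Promoters of VPS genes on balance had a higher Cy5 over Cy3 ratio than the median probe, with a median below that of all promoters. Of 37 promoters 23 were higher, 10 were lower and 4 did not pass, 62.2% and 27% of members, against 70.8% higher and 16.3% lower among all 5173 promoters tested. Centred on the mode, 18 were higher and 5 lower. The members' median was 0.12 and that of all genes 0.23, and 24 of 37 members lay below the latter. At the extremes, 5 members were in the lowest 10% of promoters and 3 in the highest 10%. Most promoter values rest on few probes, with a median of 1 per member and 68 in all. With normexp, limma called 0 promoters, and 3 higher and 0 lower were at an unadjusted p under 0.05. With loess added, it called 0, and 0 were at an unadjusted p under 0.05 in either direction.

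Of the 37 promoters, 14 are labelled divergent, shared with a gene on the other strand, and 23 are tandem. The divergent ones include that of VPS5, which VAM10 overlaps. The divergent ones had a median of 0.16, with 9 higher and 2 lower, and the tandem ones a median of 0.12, with 14 higher and 8 lower. Among all genes the medians were 0.29 for divergent promoters, with 77% higher and 11.4% lower, and 0.17 for tandem promoters, with 63.9% higher and 21.7% lower. Coding regions of some pairs went different ways: MEI5, a meiotic gene, was higher at 0.24 ± 0.01 beside VPS30 at -0.54, and YOR131C was higher at 0.24 ± 0.02 beside VPS17 at -0.27. RPL28 was higher at 0.42 ± 0.04 beside VPS73 at -0.44. PAP1 and LIP2 were also higher, beside VPS1 and VPS34, which were lower. Other pairs went the same way. SPC19, of the spindle, and VPS64 were both lower, at -0.27 ± 0.06 and -0.09 ± 0.03. FRQ1 and VPS74 were both lower too, and URA8 and VPS25 both higher. IRS4, beside VPS51, and VPS66, beside YPR140W, did not pass.

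Within genes, the promoter exceeded the coding region in most members. Of 35 members measured in both, 26 had the promoter above the coding region, 7 below and 2 did not pass, against 71.9% above and 17.9% below among all 4575 genes tested. The median difference was 0.26, beside 0.25 over all genes. The difference does not depend on how an array is centred, but it does turn with the channels. With normexp limma called 0 members, and 4 above and 0 below were at an unadjusted p under 0.05. With loess added it called 0, and 2 above and 0 below were at an unadjusted p under 0.05.

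The widest difference was that of VPS36, with 1.18 and 1.17 on the 2 arrays (1.18 ± 0.004). VPS53 followed with 0.80 and 0.86 (0.83 ± 0.04), and both owe it mainly to a high promoter. VPS38 reached 0.83 and 0.76 (0.79 ± 0.05) with a promoter at 0.12, and VPS16 0.56 and 0.57 (0.57 ± 0.003), through low coding regions. The VPS16 promoter itself is divided: 1 probe read 0.61 and the other -0.12, and with 60-nt probes only it was -0.08 and lower (limma adjusted p 0.00868). VPS41 had 0.62 ± 0.01 and VPS70 0.48 ± 0.01.

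The 7 members with the promoter below the coding region were VPS54, VPS68, VPS52, VPS62, VPS5, VPS72 and VPS4. VPS54 stood apart, with -0.54 and -0.53 (-0.53 ± 0.01, 1.45-fold). The next were VPS68 at -0.20 ± 0.0002, VPS52 at -0.17 ± 0.04, and VPS62 and VPS5 at -0.14 ± 0.01 each. VPS72 had -0.09 ± 0.03 and VPS4 -0.08 ± 0.04. With normexp the VPS54 difference was 0.14, with the sign turned (limma adjusted p 0.711), while with local background subtracted it was -0.51. By the labels only 1 of these 7 genes, VPS5, has a divergent promoter, beside 14 of the 35 members tested. Over all genes, 14.1% of those with divergent and 22.1% of those with tandem promoters had the promoter below the coding region. VAM10 overlaps VPS5, so the value of VPS5 cannot be read as that of a promoter. Setting each member's coding value against its promoter value gave Pearson's r of 0.28 and Spearman's rho of 0.24 over 35 genes, and 0.27 and 0.21 over 4575 genes, as a description of genes that share the same 2 arrays. A member's coding value thus told little of its promoter value.

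**Figure D3:**
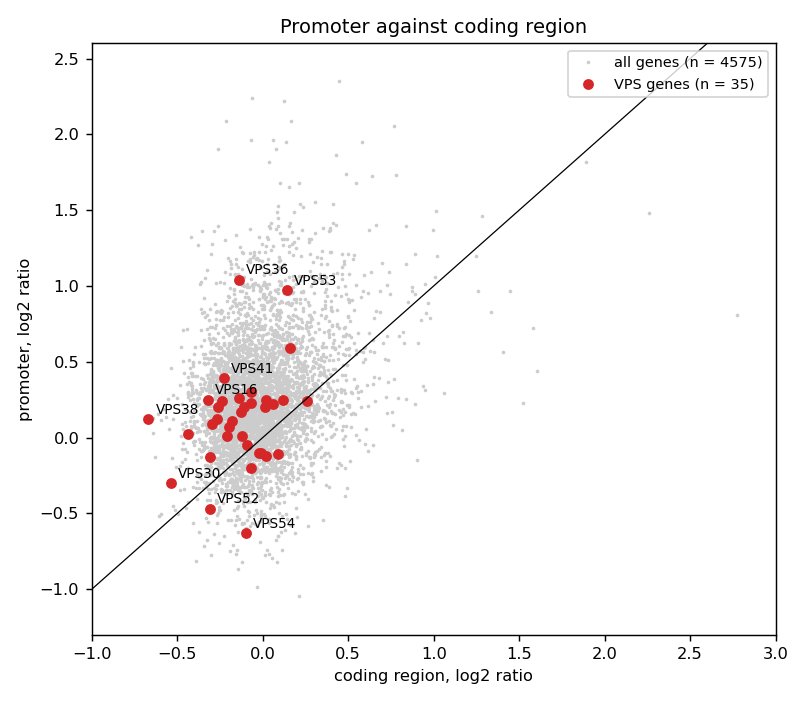
Promoter log2 ratio (vertical axis) against coding log2 ratio (horizontal axis), Cy5 over Cy3, mean of 2 arrays, for 35 VPS genes (red) and all 4575 genes measured in both (grey), with the line of equal values. VPS36 and VPS53 lie farthest above the line among VPS genes, VPS54 farthest below it, and VPS38 and VPS30 at the left edge.

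Along the coding region, the ratio at the ends exceeded that of the interior in most long members. In the 18 members with at least 6 coding probes, the mean of the first and last probe was set against all others. It was above them in 15, below in 2 and did not pass in 1, against 66.7% above and 18.4% below among 2070 genes tested. The median difference was 0.19, beside 0.14 over all genes. VPS8 had the widest, 0.42 and 0.38 (0.40 ± 0.03), followed by VPS72 with 0.40 and 0.30 (0.35 ± 0.07). Both outer probes of VPS8 and the last probe of VPS72 were saturated. Without saturated probes, which changes the outer probes of such genes, 14 of 16 members kept their direction and call. The members below were VPS34, at -0.18 ± 0.04, and VPS33, at -0.07 ± 0.05, of which 1 stayed called with local background subtracted, while VPS16 did not pass at 0.02 ± 0.01. The call depended on the probes used: with 60-nt probes only, 9 members could be tested, of which 4 were above and 2 below. VPS41, at 0.33 ± 0.05, turned to -0.24 without saturated probes, and VPS52, at 0.18 ± 0.01, to -0.13. With normexp limma called 0 members, and 3 above and 0 below were at an unadjusted p under 0.05. With loess added it called 0, and 5 above and 0 below were at an unadjusted p under 0.05.

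When the inner probes were split in 3 by order, the median over the 18 members was 0.01 at the first probe, -0.17 in the 5′ part, -0.28 in the middle part, -0.22 in the 3′ part and -0.03 at the last probe. Over all genes of this length the series was 0.06, -0.11, -0.17, -0.11 and -0.02. The first probe exceeded the last in 10 of 18 members and in 1279 of 2065 genes. Members differed in shape: VPS30 was low throughout, with -0.30 at its first probe and -0.64 at its last, whereas VPS36 fell from 0.48 to -0.69 in its middle part. VPS13 was nearly level, with -0.24, -0.16 and -0.20 in the 5′, middle and 3′ parts, although its 34 single probes ran from -0.73 to 0.11.

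**Figure D4:**
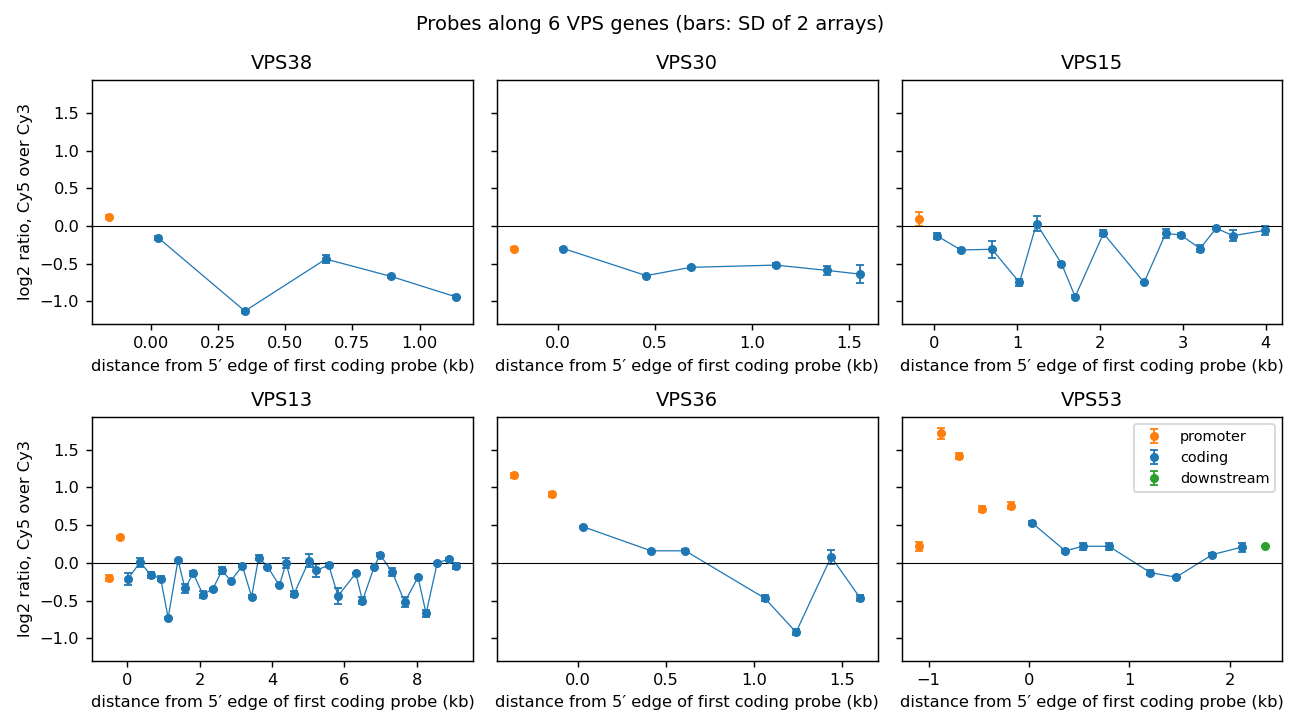
Log2 ratio of Cy5 over Cy3 of each probe along 6 VPS genes, chosen after their values were seen, against distance from the 5′ edge of the first coding probe in kb (orange, promoter; blue, coding; green, downstream; bars, SD of 2 arrays). VPS38 and VPS30 lie below 0 at every coding probe. VPS36 and VPS53 descend from promoter probes of high ratio, although the farthest VPS53 promoter probe is at 0.22. Many neighbouring probes of VPS15 and VPS13 differ by more than their bars.

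The members share features of the array that moved with the ratio in all genes. Genes with more coding probes, a rough measure of length, had lower values. Members with 2 to 3 coding probes had a median of 0.07 (all genes 0.09), those with 4 to 6 had -0.09 (-0.02), those with 7 to 9 had -0.12 (-0.10), and those with 10 or more had -0.20 (-0.17). Of 10 members with 2 to 3 probes 6 were higher and 4 lower, beside 57.3% and 30.2% of all such genes. Of 13 with 4 to 6 probes 0 were higher and 9 lower, beside 36.1% and 44%. Of 10 with 7 to 9 probes 1 was higher and 7 lower, beside 16.9% and 65.4%. Of 6 with 10 or more 0 were higher and 6 lower, beside 3.64% and 84.8%. Probe length moved with the ratio too. The 188 VPS coding probes of 60 nt had a median of -0.14 and the 76 shorter ones 0.00, and over all genes these medians were -0.10 and 0.03. Probes of 60 nt made up 71.2% of VPS coding probes and 64.8% of all coding probes. The part of gene length and probe length in the members' values was not tested. Saturated probes made up 12.5% of VPS coding probes and 12.3% of all coding probes. No member lay within 20 kb of the outermost probe of its chromosome (0 of 41).

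VPS52, VPS72 and VPS60 are consecutive genes on chromosome 4 and showed how far neighbours could differ. Coding values were -0.31 ± 0.01, -0.01 ± 0.02 and 0.26 ± 0.01 in that order. Within VPS72 the first coding probe read 0.46 and the next -0.22. The VPS72 promoter read -0.10 and the VPS60 promoter 0.24, from 1 probe each.

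Genes of the same pathway under other names were also described. Of 39 coding regions of other genes of endosome-to-vacuole traffic, 24 were lower and 8 higher, with a median of -0.09, where 49.1% of all genes were lower and 34.9% higher. Of 34 promoters 27 were higher and 4 lower, with a median of 0.20, where 70.8% of all promoters were higher and 16.3% lower. The lowest coding values were those of YPT6, a Rab6-type GTPase, at -0.45 ± 0.07 and SRN2, an ESCRT-I subunit, at -0.34 ± 0.06. The highest were those of APS3, the small subunit of an adaptor complex of the vacuolar route, at 0.41 and YPT7, the Rab7-type GTPase of vacuole fusion, at 0.39 ± 0.03. Promoters ran from -0.14 ± 0.04 at RIC1 and -0.12 ± 0.01 at PEP8, the remaining retromer subunit, to 0.65 ± 0.01 at DID4, an ESCRT-III subunit, and 0.83 ± 0.02 at GGA1, a Golgi adaptor.

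The genes of what is delivered or housed at the vacuole, its proton pump and hydrolases, were more often higher than lower. Of 26 coding regions 14 were higher and 8 lower, with a median of 0.06, against 34.9% and 49.1% of all genes. LAP4, aminopeptidase I, was highest at 0.65 ± 0.03, then VMA8, a subunit of the pump, at 0.35 ± 0.05, and STV1, a pump subunit of the Golgi and endosome, was lowest at -0.36, then ATH1, acid trehalase, at -0.32 ± 0.02. Promoters reached 1.68 ± 0.04 at VMA6, a pump subunit, and 1.27 ± 0.02 at PRB1, proteinase B, and the lowest were those of AMS1, alpha-mannosidase, at -0.24 ± 0.03 and PHO8, alkaline phosphatase, at -0.22 ± 0.04. Of other gene families, RNA polymerase genes had a coding median of -0.10 over 23 genes, proteasome genes -0.01 over 33, and large-subunit ribosomal protein genes 0.32 over 61, of which 56 were higher. Differences between these lists and the VPS genes were not tested.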

How the data were processed

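The scanner software, Agilent Feature Extraction 9.1.3.1 on design 014810, wrote the spot intensity of each channel, per the file headers. Its processed signals had local background subtracted, spatial trends removed and dyes scaled to each other, per the file headers. Its log10 ratios of Cy5 over Cy3, per the file headers, were read only to check direction. A table of log2 ratios was also deposited by the authors: it equalled log2 of processed Cy5 over Cy3 to within 5.00e-06 at 41775 probes, without centring (medians 0.03 and -0.00). Linear amplification preceded labelling, per the labels' protocols, and can favour some sequences on both arrays alike.

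Ratios were centred on the array median, without loess. Left out were probes marked non-uniform or outlying and those with Cy3 not well above background, which kept 40890 probes, 264 of 268 VPS coding probes among them. Between 4.74% and 8.49% of probes were saturated in a channel. Only 2 arrays limit the precision. A gene's value is the mean of its coding probes (2 or more) or promoter probes (1 or more), and both genes of a divergent promoter take its value. Values, promoter minus coding, and outer minus inner coding probes (6 or more in all) were fitted over all genes with lmFit and eBayes of limma 3.58.1 in R 4.3.3 and set against 0 at an adjusted p of 0.05, after the fit was checked on simulated data. The prior SD was 0.030 for coding regions and 0.046 for promoters. No source used here gives the genome build of the probe coordinates. The R64 gene table, which holds all 41 members, gave names, strands, neighbours and overlaps.

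The members and lists were chosen with earlier results of these data known. Named by rule were the 6 highest and 6 lowest members in each measure, the ends of each role group, partners of divergent promoters, and the 2 highest and 2 lowest of the other lists, plus members on which a count of 5 or fewer turns. The groups by probe number and probe length, the split of inner probes in 3, the compared families and the genes drawn along their length were chosen after values were seen. Alternatives were normexp (offset 50), normexp with loess, other centring, other probe filters, medians of probes, single arrays and, added after the data were seen, plain subtraction of local background.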

Additional observations from a re-analysis of the deposited data

How the results depend on the processing

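The 2 arrays share dye orientation and probes, so an error common to both is not part of any p-value. Median brightness was far above background, but single dim probes, such as the farthest of the VPS71 promoter, differed more between arrays, and saturation compresses some ratios. With normexp, alone or with loess, limma called 0 VPS genes in every comparison, namely coding, promoter, promoter minus coding, and outer minus inner, in both directions. It took away most of the signal, a median of 28306 to 35959 per channel, and raised the spread between arrays, with a prior SD of 0.156 for coding regions, 0.069 with loess and 0.030 in the values reported. With plain subtraction of local background, chosen after seeing the data, that SD was 0.031, the promoter median was 0.11, and 1 member had outer below inner coding probes. It repeats a step already in the processed signals, so it is no independent check. No paired analysis was possible because there is 1 group. Leaving out either array leaves no residual degrees of freedom, so only medians were recomputed: the promoter median was 0.14 to 0.15 and the coding median -0.12 to -0.10.

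The coding median was -0.13 with normexp, -0.04 with loess added, -0.13 centred on the mode, -0.07 with medians of probes and -0.14 with 60-nt probes. The promoter median was 0.07 with normexp, 0.06 with loess added, 0.11 centred on the mode, 0.13 not centred, 0.14 without saturated probes, 0.16 with 60-nt probes and 0.14 with at least 2 promoter probes. Centred on the mode, 3 coding regions were higher and 18 lower, and 5 promoters were lower. With medians of probes, 11 coding regions were higher. With 60-nt probes, 4 of 27 members had the promoter below the coding region, and 4 of 9 had outer probes above inner ones. Requiring at least 3 coding and 2 promoter probes left fewer members to test: 3 coding regions of 33 were higher, 11 promoters of 18 higher and 3 lower, and of 15 members 13 had the promoter above and 1 below the coding region. Without a probe filter, 129 of 129 member values kept their direction and their side of the threshold, as did 127 of 129 without centring, 107 with the mode and 118 with medians of probes.

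Signs turned as follows, and the cause was not tested. With 60-nt probes only, the VPS16 promoter was -0.08. The promoter minus coding difference was then 0.02 in VPS4, -0.35 in VPS64 and 0.01 in VPS72. Outer minus inner was -0.03 in VPS3, -0.0002 in VPS35, -0.09 in VPS41, -0.13 in VPS52 and -0.04 in VPS54. Without saturated probes, the VPS1 promoter was -0.21, the difference was -0.11 in VPS1 and 0.02 in VPS4, and outer minus inner was -0.24 in VPS41 and -0.13 in VPS52. With medians of probes, VPS36 coding was 0.08 and the VPS25 difference -0.07.

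With normexp, coding values were -0.02 for VPS20, 0.09 for VPS28, -0.07 for VPS60, -0.17 for VPS68, 0.13 for VPS75 and 0.02 for VPS9. Promoters were -0.005 for VPS15, -0.02 for VPS17, -0.25 for VPS35, 0.06 for VPS4, -0.12 for VPS51, 0.01 for VPS52, 0.23 for VPS55, 0.15 for VPS62, 0.13 for VPS72 and -0.12 for VPS75. Differences were -0.08 for VPS24, -0.03 for VPS25, -0.004 for VPS35, 0.25 for VPS4, 0.02 for VPS5, -0.16 for VPS51, 0.31 for VPS52, 0.14 for VPS54, 0.06 for VPS62, 0.13 for VPS68, 0.23 for VPS72 and -0.25 for VPS75. Outer minus inner was -0.24 for VPS15, -0.03 for VPS3, 0.22 for VPS33, 0.42 for VPS34, -0.26 for VPS52 and -0.12 for VPS8. With loess added, coding was 0.02 for VPS36 and 0.0003 for VPS75, the promoter 0.03 for VPS68, the difference 0.05 for VPS52 and 0.01 for VPS68, and outer minus inner -0.001 for VPS15, 0.07 for VPS33, 0.12 for VPS34 and -0.04 for VPS52.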
